A study of Drosophila melanogaster with 4 samples.

Results

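Regions enriched for RNA polymerase II (Pol II) on the euchromatin of *Drosophila melanogaster* chromosome arm 3L were examined in whole embryos. The regions were selected from the authors' list for the replicate set by position alone. A region was taken if it lay on 3L and its midpoint was at least 2 Mb from the right end of the arm sequence, where the centromere lies. This gave 1876 regions, out of 1915 on the whole arm sequence and 9885 in the whole list. The same rule gave 1032 regions in the list of ChIP replicate 1 and 1010 in that of ChIP replicate 2. The series held 2 ChIP libraries, made with an abcam antibody to Pol II, and 2 input libraries of chromatin DNA. All came from wild-type Oregon-R embryos, labelled as the Oregon-R-modENCODE stock, aged 14 to 16 h and crosslinked with 1.8% formaldehyde. The inputs entered only through the authors' calls. The embryos were used whole, so every region sums over all tissues. No marker of a tissue can be checked, because the lists name no genes. The labels do not say whether the replicates came from separate embryo collections, so the spread between them may be technical.

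Pol II transcribes protein-coding genes and many non-coding RNAs. In fly embryos it is known to gather just downstream of the start of many genes, where it can pause before it moves on, and it also spreads over the bodies of genes that are heavily transcribed. A short region of enrichment is therefore a usual shape for Pol II at a gene start, and a long one for Pol II along a gene or over adjoining genes. Arm 3L is the left arm of the third chromosome. It carries, among many others, genes for small heat shock proteins and early ecdysone-response genes that are classical sites of puffing on polytene chromosomes. Positions below are on FlyBase release 5, per the file headers. No gene is named at a position, and no sequence is shown, because the gene table used here is on another release.

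Each region has a score, which is the authors' own value. The sources used here do not say how it was computed, so its scale was read from ties. The 20 commonest scores of each whole list differ pairwise in 190 ways. Of these differences, 28 in the replicate set, 50 in replicate 1 and 46 in replicate 2 matched log2 of some fraction with whole terms of at most 32, to within 1e-06. No such match was found with natural or base-10 logarithms. Scores are therefore given on a log2 scale, and serve to rank and describe regions within a list.

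Pol II regions were found along the whole euchromatic arm and occupied about 1 base in 5 of it. The 1876 regions of the replicate set stood at 83.2 per Mb over 22.5 Mb and covered 19.8% of the sequence. The replicate lists were sparser, with 45.8 regions per Mb in replicate 1 and 44.8 in replicate 2, and each covered 10.5%. The median region was 1949 bp wide in the replicate set, 2007.5 bp in replicate 1 and 2058 bp in replicate 2. The median score was 0.46 in the replicate set and 0.67 in each replicate. The lists give no read numbers, so the depth is unknown, and a stretch without a region may lack Pol II or reads. In whole embryos, Pol II in fewer cells and less Pol II per cell cannot be told apart.

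Arm 3L carried more Pol II regions per Mb than 2L, 3R and the X, and fewer than 2R, and its scores were below those of 2R, 3R and the X in both replicates. In the replicate lists it held 45.3 ± 0.7 regions for each Mb of euchromatin (SD, n = 2). The euchromatin of the other arms, taken by the same 2 Mb rule, had 54.7 ± 1.2 on 2R, 42.6 ± 0.3 on the X, 42.4 ± 0.2 on 3R and 40.7 ± 0.3 on 2L (SD, n = 2 each). On every one of the 4 other arms both replicates lay on the same side of both 3L values. In the replicate set list, however, the X was denser than 3L, with 83.2 regions per Mb on 3L and 85.1 on the X. The ratio of 3L to the other 4 arms together was 0.98 in the replicate set, 1.02 in replicate 1 and 1.00 in replicate 2, so the side of 1 on which it falls depends on the list.

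The median score of 3L was 0.670 ± 0.001, against 0.764 ± 0.021 on the X, 0.695 ± 0.003 on 2R and 0.679 ± 0.005 on 3R (SD, n = 2 each). Arm 2L, at 0.674 ± 0.009, overlapped 3L between the replicates. The 90th percentile of scores on 3L was 1.13 in replicate 1 and 1.21 in replicate 2, and on the other arms it lay between 1.19 and 1.28. Median widths on 3L, 2033 bp ± 36, overlapped those of 2L, 3R and the X. Regions of 3L also had a partner in the other replicate less often than those of any other arm, at 75.1% ± 0.5, against 80.9% ± 0.8 on 2L, 78.6% ± 1.7 on 2R, 77.1% ± 0.4 on 3R and 75.8% ± 0.2 on the X (SD, n = 2 each). Against the X the difference, 3L minus X, was -0.76 percentage points, with replicate values of 74.7% and 75.4% on 3L and 76.0% and 75.7% on the X. With 2 values against 2, the exact two-sided permutation test over the replicates cannot go below p = 0.33. There were 16 comparisons of 3L with another arm, in density, width, score and partner share. In 12 of them the replicates did not overlap, and these reached the smallest p of the exact permutation test (Benjamini-Hochberg adjusted p = 0.444), so no difference passed a threshold. The arms of a replicate come from the same library, so these values are not independent samples. Within each replicate, the difference between 3L and the other arm had the same sign in both replicates in 14 of the 16 comparisons, and the exact sign-flip test over 2 replicates cannot go below p = 0.50.

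**Figure D1:**
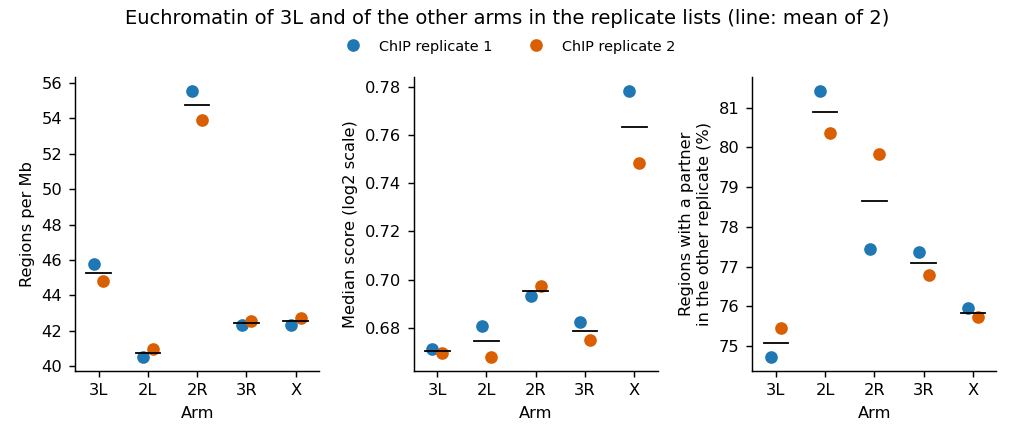
Pol II regions per Mb, median score on the log2 scale, and percentage of regions with a partner in the other replicate, for the euchromatin of 3L and the 4 other arms. Points are the ChIP replicates, lines are means of 2, and axes do not start at 0. On 3L the densities are 45.8 and 44.8 per Mb, between those of 2R and of the other arms, and its partner shares, 74.7% and 75.4%, are the lowest.

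Along the arm, Pol II regions were most frequent in the outer part and least frequent in the third of 4 equal stretches. These stretches of 5.64 Mb, counted from the telomere end, had 87.5, 86.8, 76.5 and 82.2 regions per Mb in the replicate set. In the replicate lists they had 51.8 ± 0.3, 46.8 ± 0.5, 38.8 ± 0.1 and 43.7 ± 3.1 per Mb (SD, n = 2). The fourth stretch was the one on which the replicates differed most, with 259 regions in replicate 1 and 234 in replicate 2. Over the 11.3 Mb next to the telomere there were 49.3 ± 0.1 regions per Mb, and over the 11.3 Mb next to the centromere margin 41.3 ± 1.5 (SD, n = 2). Their ratio was 1.10 in the replicate set, 1.16 in replicate 1 and 1.23 in replicate 2. With the sequence cut into 3 equal stretches, and the outermost set against the innermost, the ratio in the replicate set was 1.02.

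The median scores of the 4 stretches, from the telomere end, were 0.672 ± 0.003, 0.688 ± 0.001, 0.675 ± 0.009 and 0.643 ± 0.010 in the replicate lists (SD, n = 2), so the fourth was the lowest. The median score of the outer 11.3 Mb was 0.681 ± 0.001 and that of the inner 11.3 Mb 0.661 ± 0.001, a difference of 0.020 that was the same in both replicates to 3 decimals (SD, n = 2). In the replicate set the medians were 0.472 and 0.448. The 90th percentile was 1.14 in the outer and 1.12 in the inner stretch in replicate 1, and 1.20 in both stretches in replicate 2. Across the 1876 regions, score and midpoint had a Spearman rho of -0.13. Scores of neighbouring regions were not related in rank. The Spearman rho between a region and the next was -0.01 in the replicate set, -0.01 in replicate 1 and -0.01 in replicate 2, across regions, which are not replicates.

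**Figure D2:**
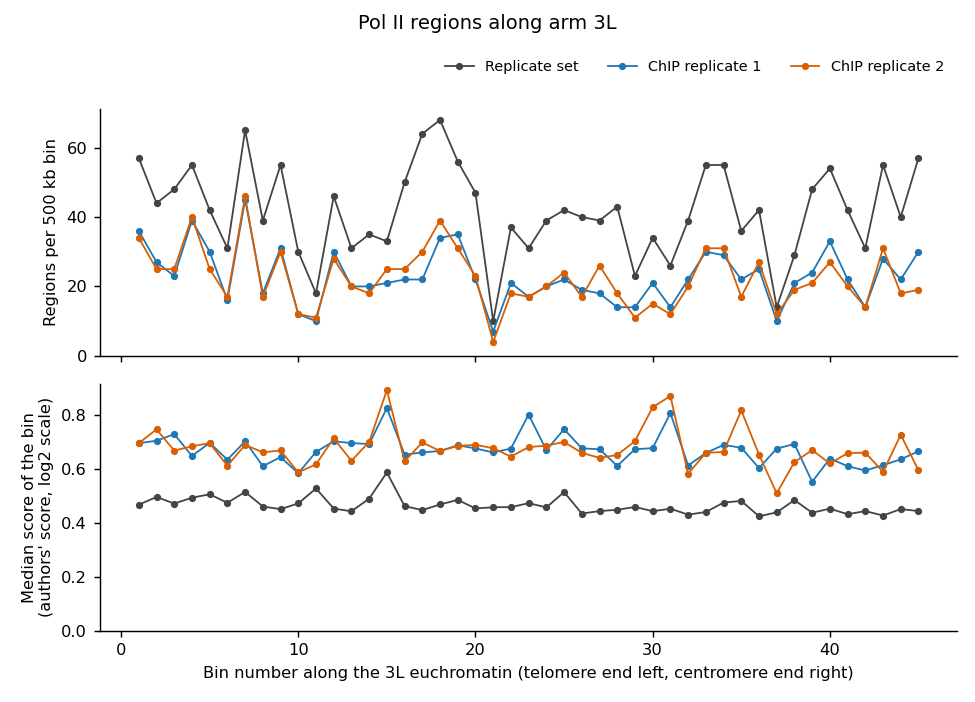
Number of Pol II regions (top) and their median score on the log2 scale (bottom) in 45 bins of 500 kb along the 3L euchromatin, from the telomere end at left to the centromere end at right. Lines with points are the replicate set and the 2 ChIP replicates. Counts run between 10 and 68 in the replicate set and fall in all 3 lists at bin 21, while median scores of the replicate set stay between 0.43 and 0.59.

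Dense and sparse stretches were placed broadly alike in the 3 lists, with exceptions among the densest bins. Among the 45 full bins of 500 kb, the number of regions in replicate 1 and replicate 2 varied together (Spearman rho 0.88, Pearson r 0.91), given as a description, since the bins share their libraries. The median bin held 42 regions in the replicate set, 22 in replicate 1 and 20 in replicate 2. The bin with most regions of the replicate set ran from 8500001 to 9000000 and held 68, with 34 in replicate 1 and 39 in replicate 2. The next was 3000001 to 3500000, with 65, 45 and 46 regions in the 3 lists in the same order, the highest counts of both replicates. The third adjoined the first, from 8000001 to 8500000, with 64, 22 and 30. There the replicate set added the most, as 33 of its 64 regions overlapped neither replicate.

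The sparsest bin, from 10000001 to 10500000, held 10 regions, with 7 in replicate 1 and 4 in replicate 2. It was followed by 18000001 to 18500000, with 14, 10 and 12, and by 5000001 to 5500000, with 18, 10 and 11. The bin at 18000001 was also the one where the list was best supported, as 10 of its 14 regions overlapped both replicates. The number of regions in a bin and its median score were unrelated, with a Spearman rho of -0.04 over the 45 bins. The bin with the highest median score of all 3 lists held the arm from 7000001 to 7500000, with 0.59 in the replicate set, 0.83 in replicate 1 and 0.89 in replicate 2, and it held 33 regions.

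The median gap to the next Pol II region was 3833 bp in the replicate set, 9240 bp in replicate 1 and 9473 bp in replicate 2. The middle 50% of gaps in the replicate set lay between 1072 and 10242 bp. Gaps of at most 1 kb made up 24.2% of the gaps in the replicate set, 10.1% in replicate 1 and 10.9% in replicate 2. At the other end, 63 gaps exceeded 50 kb in the replicate set and together took up 4.89 Mb, more than the 4461.73 kb that all regions covered. The replicates had 114 and 109 such gaps. The third of the 4 stretches of the arm held 20 of the 63, and 7 of the 11 gaps over 100 kb. The other 3 stretches held 14, 14 and 15 gaps over 50 kb. In the replicates the 4 stretches differed less, with 25, 28, 32 and 29 such gaps in replicate 1 and 27, 25, 31 and 26 in replicate 2. The fourth held 0 gaps over 100 kb in the replicate set, but 2 in replicate 1 and 5 in replicate 2. The longest gap was 209 kb in replicate 1 and 207 kb in replicate 2, both in the second stretch.

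The longest free stretches of the replicate set within the euchromatin were 157 kb from 14805297 to 14961843, 152 kb from 15334945 to 15487112 and 146 kb from 4977179 to 5123378. They were followed by 133 kb from 14268734 to 14401938 and 119 kb from 12886806 to 13005775. Of these 5, 4 lay between 12886806 and 15487112. None of the 5 held a region of either replicate. This was nearly fixed in advance, as all but 9 replicate 1 regions and 3 replicate 2 regions of 3L overlapped the replicate set. The sequence before the first region of the arm was also empty. The first region of the replicate set began at 122193 and overlapped neither replicate, and the first region of replicate 1 began at 128413 and that of replicate 2 at 128468.

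**Figure D3:**
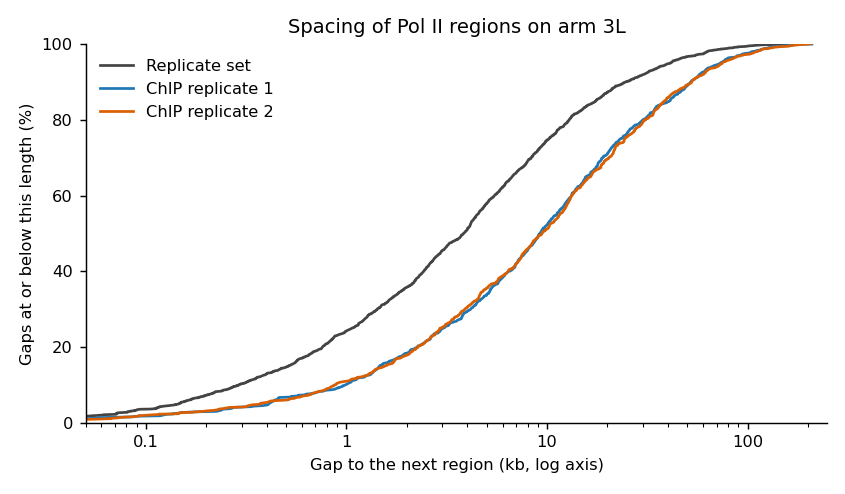
Cumulative share of gaps between neighbouring Pol II regions on 3L (percent) against gap length (kb, log axis), one line for each list. The lines of the ChIP replicates lie on each other, with medians of 9240 and 9473 bp, and the replicate set lies to their left with a median of 3833 bp.

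Most regions stood alone on the scale of 1 kb. There were 1106 regions (59.0%) with no neighbour within 1 kb, 216 pairs, and 100 runs of 3 or more regions joined by gaps of at most 1 kb. The runs held 338 regions (18.0%). The longest run, of 7 regions, spanned 19.8 kb from 22361287 to 22381080, close to the centromere margin. Its scores were 0.35 to 0.50, with a median of 0.45, and none of its regions overlapped both replicates. A run of 6 regions from 1776805 to 1804909 spanned 28.1 kb, and 3 of its regions overlapped both replicates. The other runs of 6 lay from 12512253 to 12528801 and from 6197602 to 6212724. A run of 5 from 3076954 to 3107930 spanned 31.0 kb within the bin with the second highest count. It took in 8 regions of replicate 1 and 7 of replicate 2, and its scores reached 1.00. Whether such runs are separate sites or 1 enriched stretch broken by the caller cannot be told apart from the lists.

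Widths ranged from 1001 to 19868 bp. Regions of at most 3 kb made up 81.2% of the regions and 59.8% of the covered bases. The 103 regions wider than 5 kb were 5.49% of the regions and 18.8% of the bases, and 21 were wider than 10 kb. In the replicate lists, regions wider than 5 kb were 3.57% ± 0.01 on 3L (SD, n = 2), beside 4.64% ± 0.54 on 3R, 4.68% ± 0.10 on 2R, 3.45% ± 0.19 on the X and 2.80% ± 0.19 on 2L (SD, n = 2 each), a comparison with no test. Of the 103, 98 overlapped both replicates, as did all 21 above 10 kb. An overlap of 1 bp is likelier for a wider region, so these shares do not say how much of a region the replicates cover.

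Score and width were most closely related in a narrow band around 2 kb. The bands were chosen after the values were seen. Between 1.7 and 2.4 kb, which held 634 regions of the replicate set, score and width had a Spearman rho of 0.76. It was 0.81 in replicate 1, over 516 regions, and 0.82 in replicate 2, over 556. Among the replicate set regions found in both replicates, the median score was 0.38 for widths of 1.9 to 2 kb, 0.52 for 2 to 2.1 kb, 0.81 for 2.1 to 2.2 kb and 0.98 for 2.2 to 2.3 kb. For 2.3 to 2.4 kb it was 0.97, so the climb ended there. Between 2.4 and 5 kb the rho was 0.17 in the replicate set, 0.01 in replicate 1 and 0.05 in replicate 2. Above 5 kb it was 0.26, 0.37 and 0.16 in the same order. At or below 1.7 kb it turned negative, at -0.51 in the replicate set and -0.13 and -0.12 in replicates 1 and 2. Of the 375 regions in the highest of 5 equal score classes, 138 (36.8%) were between 2 and 2.4 kb wide, against 328 of all 1876 regions (17.5%).

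**Figure D4:**
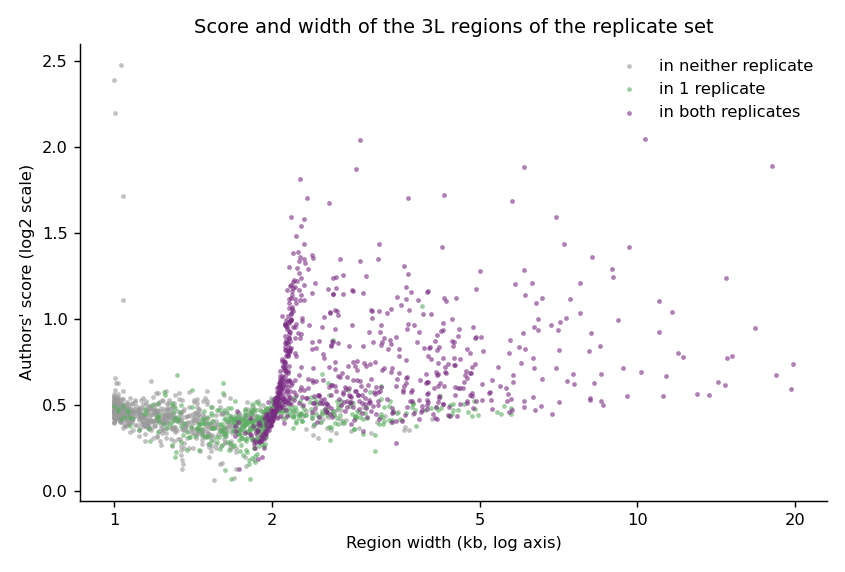
Score on the log2 scale against width (kb, log axis) of the 1876 Pol II regions on 3L in the replicate set, coloured by overlap with the ChIP replicates. Regions in both replicates form a steep ridge between 1.9 and 2.4 kb and a loose cloud above it, and a few regions of about 1 kb in neither replicate reach scores above 2.

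Of the 1876 regions, 719 (38.3%, Wilson 95% interval 36.2 to 40.5) overlapped a region of both replicates, and 714 (38.1%, interval 35.9 to 40.3) overlapped neither. In the whole replicate set list these shares were 37.8% and 41.1%. A further 228 regions overlapped replicate 1 alone and 215 replicate 2 alone, 443 together (23.6%), where the whole list had 21.1%. The share in both replicates on 3L was thus near that of the whole list, and the share in neither was 38.1% on 3L and between 40.3% on 2R and 43.6% on the X elsewhere. Intervals cover counting error only, and neighbouring regions are not independent. In bases, the regions in both replicates held 56.5% of the covered sequence and those in neither 22.5%.

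Replicate support rose with width through all 5 width classes, and with score mainly above the lower 3 score classes. An overlap of 1 bp is likelier for a wider region, so the shares by width partly follow from the overlap rule. Of the 421 regions narrower than 1301 bp, the narrowest width in either replicate list, 387 (91.9%) overlapped neither replicate and none overlapped both. In the 5 width classes, from narrow to wide, the share in both was 0.00%, 1.60%, 38.7%, 69.9% and 81.6%. In the 5 score classes it was 11.7%, 11.7%, 16.0%, 55.2% and 97.1%, from low to high. The intervals of the lower 3 score classes overlapped. They cover counting error only and are no test, so these classes were not ranked. Above a score of 0.63, where the top class began, 364 of 375 regions overlapped both replicates. The replicate set and the replicate lists come from the same ChIP libraries, so such overlap is not independent support. The median width was 2611 bp for regions in both replicates, 1907 bp for those in 1 and 1260 bp for those in neither. Their median scores were 0.64, 0.42 and 0.43 in the same order.

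**Figure D5:**
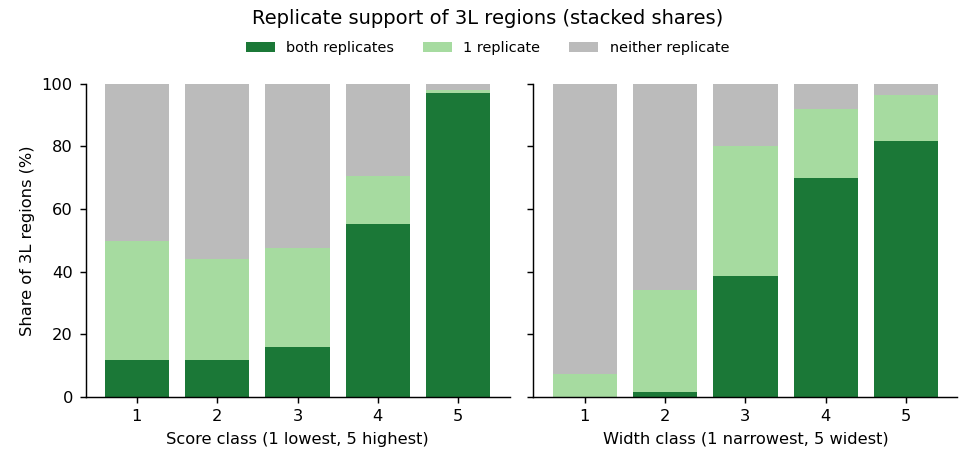
Share of the 3L regions of the replicate set (percent, stacked) that overlapped both, 1 or neither ChIP replicate, by score class (left) and width class (right), 5 classes of 375 or 376 regions each. The share in both is 11.7% to 16.0% in the lower 3 score classes and 97.1% in the top class, and grows with width up to 81.6%.

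By position, the share in both replicates was 42.0%, 37.6%, 35.7% and 37.6% in the 4 stretches from the telomere end to the centromere margin, with overlapping Wilson 95% intervals. Regions with a neighbour within 1 kb were in both replicates in 35.2% of cases (interval 31.9 to 38.6). The 56 regions with no neighbour within 20 kb were in both in 60.7% (interval 47.6 to 72.4), and the 188 with none within 10 kb in 45.2% (interval 38.3 to 52.4). Over 5 equal classes of the gap to the nearest neighbour, from short to long, the shares were 36.4%, 34.3%, 40.9%, 37.0% and 43.0%. Regions in neither replicate lay a median of 5633 bp from the nearest region found in both, and 16.9% lay within 1 kb of one, against 5857 bp and 15.3% for regions in 1 replicate.

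Between the replicate lists, a partner was found for 771 of the 1032 regions of replicate 1 on 3L (74.7%, Wilson 95% interval 72.0 to 77.3). For replicate 2 it was 762 of 1010 (75.4%, interval 72.7 to 78.0). In the whole lists the shares were 77.3% and 77.1%. Partnered regions had a median score of 0.70 in replicate 1 and 0.73 in replicate 2, and unpartnered ones 0.62 and 0.60. Over 745 pairs, each region used once, the median shift was 86 bp at the start and 85 bp at the end. The 90th percentile of the shift at the start was 1041 bp. Scores of the pairs had a Spearman rho of 0.75 and widths one of 0.63, across regions, which are not replicates. All but 9 replicate 1 regions and 3 replicate 2 regions overlapped the replicate set. Of the 20 highest-scoring regions of each replicate on 3L, 13 were among the 20 highest of the other, and all 20 had a partner of some rank.

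Regions of the replicate set were wider and scored lower than the replicate regions they overlapped. Over 943 pairs with replicate 1 they were wider in 90.8% and lower in score in 80.9%. With replicate 2, over 932 pairs, these shares were 88.7% and 86.5%. How the score of each list was formed is not known, so a lower score need not mean less Pol II. Of the 1876, 67 regions took in 2 or more regions of replicate 1, up to 5, and 62 took in 2 or more of replicate 2, up to 4. The joined regions had a median width of 6296 bp for replicate 1, against 2247 bp for those with 1 region.

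Of the 10 highest-scoring Pol II regions found in both replicates, 8 lay in the outer 11.3 Mb, where 52.3% of all 1876 regions and 56.5% of the top score class lay. The region from 11244315, named below, is the one of the 8 nearest to the dividing line. The first was 10.3 kb wide, from 222076 to 232394, and scored 2.05. It was a single region in each replicate, scoring 1.89 in replicate 1, where it ranked 5, and 2.23 in replicate 2, where it ranked 2. The second was short, 2945 bp from 3068963 to 3071907, and scored 2.04, ranking 6 in replicate 1 and 3 in replicate 2. The third, from 627164 to 645248, was both strong and broad. Its 18.1 kb made it the fourth widest region of the arm, it scored 1.89, and it was 18186 bp in replicate 1 and 17373 bp in replicate 2, with scores of 1.91 and 1.92. Before it lay a narrow region, from 602796 to 605060, that scored 1.82.

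The other 6 of the 10, all in both replicates by selection, varied in rank. The region from 7077709 to 7081977, in the bin with the highest median scores, scored 2.37 in replicate 2, the top value of 3L in that list, and 1.53 in replicate 1, where it ranked 21. The region from 8667615 to 8673383 had the top replicate 1 score, 2.11, over 2788 bp, and ranked 8 in replicate 2 with 1.90 over 5441 bp. The region from 11244315 to 11250382 scored 2.07 and 2.13 in replicates 1 and 2, ranking 2 and 5. The region from 16652884 to 16655777 scored 1.78 and 2.18, ranking 8 and 4. The region from 1462584 to 1466220 scored 2.02 and 1.89, and 94420 bp free of regions preceded it. The last, 2334 bp from 14266400 to 14268733, was isolated. It scored 1.80 and 1.68, with 38651 bp free before it and 133205 bp after it, the fourth longest free stretch of the replicate set inside the margin.

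The 10 widest regions in both replicates scored 0.59 to 1.89, at ranks 6 to 432 of the 1876, and most were several regions in at least 1 replicate list. The widest, 19.9 kb from 4288847 to 4308714, was a single region of 18847 bp scoring 1.07 in replicate 1. In replicate 2 it was 2 regions that together covered 3245 bp, with a highest score of 0.60. The second, 19.7 kb from 2087258 to 2106932, was 4 regions in replicate 1 covering 11755 bp and 3 in replicate 2 covering 9453 bp. The third, 18.4 kb from 8552250 to 8570649 in the bin with most regions, was 5 and 4 regions. The region from 18745024 to 18759796 was, like the one from 627164, whole in both replicates. Its 14773 bp were a single region of 14604 bp in replicate 1 and of 14647 bp in replicate 2, with scores of 1.21 and 1.28.

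The region from 13469545 to 13484375 scored 0.77, at rank 262. It took in a region from 13469601 to 13471920 that ranked 13 in replicate 1 with 1.64, and one from 13469504 to 13471953 that ranked 15 in replicate 2 with 1.77. The other wide regions ran from 128429 to 145171, 3088740 to 3103890, 5750895 to 5765609 and 431961 to 446206, and were each 2 to 4 regions in the replicate lists.

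The 3 highest scores of the arm belonged to very short regions that neither replicate had. They were 1033 bp from 21746578 to 21747610, scoring 2.48, 1001 bp from 5297759 to 5298759, scoring 2.39, and 1006 bp from 11325047 to 11326052, scoring 2.20. Another, 1041 bp from 9526766 to 9527806, ranked 11 with 1.71, and the fifth, 1038 bp from 18827130 to 18828167, ranked 95 with 1.11. All 5 were narrower than any replicate region and the nearest neighbour of any of them was 4387 bp away. The second exceeded 0.392944, the score most often repeated on 3L and shared by 17 regions, by 2.00. These 5 were the regions among the 100 highest scores of 3L that did not overlap both replicates.

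Among regions with no partner in the other replicate, the strongest ranked higher in replicate 2 than in replicate 1. The strongest unpartnered region of replicate 1, 1353 bp from 9270984 to 9272336, scored 0.97 at rank 190 and had no overlap with the replicate set. The next were 3327376 to 3328855 and 2102975 to 2105263, with 0.95 and 0.91. In replicate 2 the strongest, 3694 bp from 5123572 to 5127265, scored 1.54 at rank 31. It began just beyond the 146 kb free stretch that ends at 5123378. The others were 6142046 to 6144854, with 1.18, and 16256970 to 16259619, with 1.06.

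At the margin that bounds the euchromatin, the last regions inside were 22461779 to 22462987, scoring 0.43, 22463155 to 22466553, scoring 0.48, and 22521297 to 22522306, scoring 0.50. The first outside were 22658709 to 22666016, scoring 1.38, 22670740 to 22674211, scoring 0.39, and 22684067 to 22687568, scoring 0.49. The 2 Mb beyond held 39 regions, 19.5 per Mb, of which 14 overlapped both replicates.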

How the data were processed

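The files were 3 lists of enriched regions, 1 for each ChIP replicate and 1 for the replicate set. The submitters' processing notes name Bowtie 0.12.7, a read aligner, and positions are on FlyBase release 5, per the file headers. The region caller, its threshold and how the replicates were joined are steps not given in the sources used here. The deposited score per region was used as the authors' value, and deposited starts and ends were counted from 1. No read counts or depths were at hand, so precision is given as the spread between 2 replicates or as Wilson 95% intervals.

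An overlap of 1 bp or more counted as shared. Regions were placed by midpoint, for the other arms with the 2 Mb margin at their own centromere end. Overlap, merging and gaps were tested on simulated data. Regions named by position were the 10 strongest and 10 widest in both replicates, the 5 strongest in neither, the 3 strongest unpartnered in each replicate, the 3 densest and 3 sparsest bins of 500 kb, the 5 longest gaps and runs, the first and last region, and the 3 on each side of the margin. Members, lists and rules were chosen with earlier results of these data known. The bin from 7000001, the bins of 250 kb in the closing section and the width bands were picked after their values were seen. Alternatives were other margins, score and width filters, merging, other overlap rules, bins, single lists and, added after seeing the data, differences within a replicate. Scripts ran in Python 3.11.15 with scipy 1.17.1 (exact tests, intervals), pandas 2.3.3, numpy 2.4.6 and, for figures, matplotlib 3.10.9.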

Additional observations from a re-analysis of the deposited data

How the results depend on the processing

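Of 80 values recomputed under alternatives, 27 stayed within the replicate spread, the counting interval or 1.5 times the count, 51 moved beyond it, and 2 changed sides. The ratio of 3L density to the other 4 arms, 0.98 in the replicate set, was 1.00 to 1.02 in single replicates. A filter at the median score of each whole list, over all arms, left 837 regions on 3L, 37.1 per Mb and 11.6% covered. Their median width was 2349 bp, gap 13200.5 bp and score 0.60. Fewer regions, less cover and higher scores follow from such a filter. The ratio to the other arms was then 0.84 and the outer to inner ratio 1.36. A cut-off shared by all arms keeps a smaller share of regions where scores are lower. Both ratios therefore carry score differences as well as density. In the replicate set the median score was 0.461 on 3L, 0.457 on 2L, 0.462 on 3R, 0.468 on 2R and 0.528 on the X. It was 0.472 in the outer and 0.448 in the inner 11.3 Mb of 3L. Regions of at least 1301 bp gave 64.5 per Mb, 17.7% covered, a width of 2120 bp, a gap of 5113 bp, a score of 0.47, 49.4% in both replicates and 22.5% in neither. Merging within 500 bp gave 71.0 per Mb, 20.1% covered, 2036 bp, a gap of 4905.5 bp, a score of 0.47, 42.7% in both and 34.3% in neither. A margin of 1 Mb gave 81.0 per Mb, 19.3% covered and a ratio of 0.96 to the other arms, and one of 3 Mb 19.8% covered. Reciprocal overlap of 50% gave 31.2% in both and 43.4% in neither, and extension of replicate regions by 500 bp 42.1% and 33.2%. With 3 equal stretches the outer to inner ratio was 1.02. Single replicate lists gave 1010 to 1032 regions, 44.8 to 45.8 per Mb, 10.5% covered, widths of 2007.5 to 2058 bp, gaps of 9240 to 9473 bp, a score of 0.67 and an outer to inner ratio of 1.16 to 1.23. Against 1 replicate alone, 49.8% to 50.5% of regions overlapped and 49.5% to 50.2% did not. Beyond what each filter or list fixes by construction, the cause was not tested. In bins of 250 kb the sparsest bin had 12 regions per Mb, and in bins of 1 Mb 43. With the replicate as a block, an alternative chosen after seeing the data, 14 comparisons of 3L with another arm had the same sign in both replicates. Without it, 12 comparisons had replicates that did not overlap. That rule is stricter and forces the same sign, so the first count could not be below 12. ChIP and input could not be paired, because the inputs carry no values. With no read numbers in the lists, the limits set by depth are not known.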

Other observations

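In bins of 250 kb, the densest bin of the replicate set lay at the inner end of the 3L euchromatin, while in both replicates the densest was 3000001 to 3250000, in the outer part, with 27 regions in replicate 1 and 30 in replicate 2. The inner bin from 22250001 to 22500000 held 43 regions in the replicate set, 172 per Mb, with 25 regions in replicate 1 and 14 in replicate 2. Only 9 of the 43 overlapped both replicates, and the median score was 0.44. The stretch holds the longest run of the arm and borders the sparse sequence at the margin, as the next 43.6 kb up to the margin held 1 region. The 500 kb bin around it had the lowest share of regions in both replicates of the 45 bins, 22.8%, but the bin from 19000001 to 19500000 was close, at 22.9%. At 250 kb, 20.9% of the regions of the inner bin were in both, and lower shares lay elsewhere. They were 2 of 26 regions from 13500001 to 13750000 and 2 of 10 from 11250001 to 11500000. Next to these values, the bin with the fewest regions at 250 kb, from 14250001 to 14500000, held 3 regions, and all 3 overlapped both replicates.

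The ridge of score against width near 2 kb was also present on the other arms. Between 1.7 and 2.4 kb the Spearman rho in the replicate set was 0.75 on 2L, 0.75 on 2R, 0.76 on 3R and 0.72 on the X, and 0.76 on 3L.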
